A study of Mus musculus with 30 samples.

Results

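The ephrin, semaphorin, Slit and netrin genes are the 4 large systems of guidance cues, with their receptors. Members were chosen by gene symbol: ephrins (Efna, Efnb) and Eph receptors, semaphorins with plexins and neuropilins, Slits with Robo receptors, and netrins with Unc5 receptors. The rule found 67 members among the 19938 genes that had a probe set of a single gene. They are 8 ephrins, 13 Eph receptors, 20 semaphorins, 9 plexins, 2 neuropilins, 3 Slits, 4 Robo receptors, 4 netrins and 4 Unc5 receptors. The symbol rule itself used no measured value, except that the probe set with the highest mean over the arrays stood for a gene with several. These gene families were chosen with earlier results of these data known. The study set mouse endoderm made in culture from induced pluripotent stem (iPS) cells beside that made from embryonic stem (ES) cells, and both beside endoderm of the embryo. Cultured cells were the iPS clones ST8 and ST5 and ES cells, all of C57BL/6x129SvJae background, at day 5 of differentiation (sorted ckit+ and Sox2dim) and at day 0 (undifferentiated, sorted Sox2bright). Embryo cells were foregut endoderm of E8.25 embryos of the Swiss webster strain, sorted as ENDM1+, Epcam+ and low in side scatter (SSlo), and the comparator population of the same stage and strain, sorted as Epcam+ and ENDM1 negative. ENDM1 is the antigen by which endoderm was sorted. Each group had 3 arrays, which the labels call biological replicates. RNA of the 3 lines at both days was labelled without amplification (18 arrays). RNA of the embryo cells, and of ES cells at day 5 and day 0, was labelled after amplification (12 arrays). Each iPS line is a single clone and a single ES line stands for ES cells, so the spread between lines of a kind was not measured.

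Guidance cues were named for steering growing axons, and they also act on cell sorting, migration and vessel growth in many tissues. Ephrins are tethered to the cell surface, by a lipid anchor (A class) or a membrane-spanning stretch (B class), and bind Eph receptor tyrosine kinases on the neighbouring cell, with signals passing into both cells. Semaphorins bind plexins; secreted class 3 semaphorins mostly need a neuropilin to do so. Slits are secreted ligands of Robo receptors. Netrins are laminin-related secreted proteins that attract cells through Dcc and neogenin and repel them through Unc5 receptors. In endoderm and its derivatives these systems are known from tissue boundaries, from the patterning of gut vessels and nerves and from lung branching.

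Values are log2 expression after RMA, the standard background correction, quantile normalization and probe summary of such arrays, as the authors deposited them. Array medians lay between 5.87 and 6.01 on unamplified arrays and between 5.84 and 5.95 on amplified ones. The median gene stood at 5.96 on unamplified and 5.89 on amplified arrays, and 31 and 32 members lay below it. Levels were compared within a labelling and within a gene only. A gene was called where the Benjamini-Hochberg adjusted p of limma's moderated test, taken over all 19938 genes, was under 0.05. Every difference is given on the log2 scale, where 1 equals a 2-fold difference, with its standard error and 3 arrays a group unless stated otherwise. Of 8 definitive endoderm markers, 8 rose at day 5 in each of the 3 lines, and pluripotency markers fell in 8 of 8 cases in ST8, 8 of 8 in ST5 and 7 of 8 in ES cells. The 8 fibroblast and mesenchyme markers also fell in each line, their mean level lying between 4.91 and 5.43 on the 9 day 5 arrays against 7.66 and 8.27 on the 9 day 0 arrays. Foregut markers rose in 7, 6 and 7 of 8 cases in ST8, ST5 and ES cells, and visceral or yolk sac endoderm markers in 5, 6 and 5 of 8. The part of these markers' cells in the results on guidance genes was not tested, and since day 5 and day 0 cells were sorted on different markers, differentiation and sorting cannot be told apart. In bulk samples, fewer cells of a type and less RNA per cell cannot be told apart either.

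Among the day 5 arrays, 2 unamplified ones stood apart from the others of their group, and guidance genes were among the genes that set them apart. In replicate 2 of ST8 at day 5, 657 genes (3.30%) lay at least 1 from the mean of the other ST8 arrays. These included 10 members (14.9%): Nrp1, Nrp2, Plxna4, Robo1 and Sema6d were higher, and Efnb2, Sema3c, Sema3e, Sema6a and Slit3 lower. In replicate 1 of ES cells at day 5, 354 genes (1.78%) did so, with 9 members (13.4%): Nrp1, Robo1, Sema6d and Slit1 were higher, and Efnb2, Sema3a, Sema3e, Sema6a and Slit2 lower. Both arrays lay nearer to ST5 at day 5 than their group did. Only 17 genes of that ST8 array differed by at least 1 from the ST5 mean, against 740 and 716 for replicates 1 and 3, and 110 genes of that ES array, against 795 and 723 for replicates 2 and 3. Pou5f1, the pluripotency factor Oct4, read 10.48, 7.25 and 10.43 in replicates 1 to 3 of ST8 at day 5, 8.36, 8.40 and 8.29 in ST5 and 8.41, 9.64 and 9.61 in ES cells. Sox17, an endoderm factor, read 7.40, 9.30 and 7.23 in ST8, 8.99, 8.82 and 8.69 in ST5 and 9.35, 7.15 and 7.28 in ES cells. Thus the 2 arrays were low in Pou5f1 and high in Sox17 beside the others of their group. Amplified ES replicate 1 at day 5 stood apart in like manner (269 genes, 1.35%), with Nrp1, Robo1 and Sema6d higher and Efnb2, Sema3e, Sema6a and Slit2 lower (10.4% of members). Day 5 counts over all members are given with and without the 2 unamplified arrays. So are the differences of some members that set them apart. Other results are given with all arrays only. Among these, Efna2, Plxna2, Ephb1 and Sema5b lay 0.91, 0.96, 0.82 and 0.79 above the other ST8 arrays in replicate 2. Slit2 lay 1.01 below the other ES arrays in replicate 1. Leaving the 2 arrays out, a choice made after their values were seen, also changes the spread that all tests of unamplified arrays share. Whether samples were exchanged was not tested, nor was the part of cell makeup in the differences.

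The promoters of Nrp1, Robo1 and Sema3e are shown because these 3 genes split the day 5 arrays, Nrp1 and Robo1 being high where Sema3e was low. Sequences are from RefSeq on GRCm38.p6, 250 bases before the start of the gene to 50 after it, on the plus strand of chr8:128358823-128359122 for Nrp1, chr16:72662899-72663198 for Robo1 and chr5:14025026-14025325 for Sema3e. Capitals mark matches to a SOX motif (ACAAT) and a TCF/LEF motif (CTTTGA), searched on both strands, and in Sema3e both matches lie on the minus strand.
Nrp1: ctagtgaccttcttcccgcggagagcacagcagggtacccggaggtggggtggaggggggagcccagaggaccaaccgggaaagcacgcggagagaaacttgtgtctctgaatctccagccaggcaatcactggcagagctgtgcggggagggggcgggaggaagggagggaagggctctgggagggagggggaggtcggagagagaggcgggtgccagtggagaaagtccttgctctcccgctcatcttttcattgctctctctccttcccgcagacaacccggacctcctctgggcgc
Robo1: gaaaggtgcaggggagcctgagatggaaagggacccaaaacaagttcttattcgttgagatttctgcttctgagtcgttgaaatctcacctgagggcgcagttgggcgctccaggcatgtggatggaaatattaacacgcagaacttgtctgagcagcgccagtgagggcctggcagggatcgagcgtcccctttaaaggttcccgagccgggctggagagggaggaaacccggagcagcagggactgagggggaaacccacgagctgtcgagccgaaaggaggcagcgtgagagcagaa
Sema3e: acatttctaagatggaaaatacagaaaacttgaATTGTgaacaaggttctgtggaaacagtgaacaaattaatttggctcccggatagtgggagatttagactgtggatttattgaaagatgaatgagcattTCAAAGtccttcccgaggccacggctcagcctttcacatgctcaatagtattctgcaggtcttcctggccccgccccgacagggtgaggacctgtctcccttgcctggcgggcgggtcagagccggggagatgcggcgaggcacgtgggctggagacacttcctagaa
The Sema3e matches have their first bases at -217 and -118 relative to the start of the gene. The Nrp1 and Robo1 windows held neither of these motifs, nor a GATA motif (GATAA) or a FOXA motif (TGTTTAC). RefSeq promoters were found for 58 of the 67 members, 74 promoters in all. Of these, 14 held the SOX motif (18.9%, against 31% of all 32841 promoters), 10 the GATA motif (13.5% against 25.4%), 5 the TCF/LEF motif (6.76% against 16%) and 0 the FOXA motif (against 3.65%). A match is a run of letters and no measured binding site.

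Guidance genes were called higher at day 5 than at day 0 more often than lower in all 3 lines. In ST8, 25 members rose and 8 fell, beside a background of 21% of all genes called higher and 19.5% lower. In ST5, 27 rose and 14 fell (background 23.2% and 24.8%), and in ES cells 30 rose and 7 fell (background 18.9% and 19.7%). The rises made up 44.8% of the members in ES cells. The median difference of the members was 0.20 in ST8, 0.04 in ST5 and 0.37 in ES cells, against -0.01, -0.04 and 0.02 for all genes. Rises of at least 1 numbered 14 in ST8 (background 4.05%), 20 in ST5 (6.17%) and 15 in ES cells (3.63%). Called higher in all 3 lines were 20 members (29.9%, background 13.8%): Efna1, Efna5, Efnb1, Epha7, Ephb1, Ephb4, Nrp1, Plxna2, Plxnb1, Plxnb2, Plxnd1, Robo1, Robo3, Sema3f, Sema4c, Sema5b, Sema6d, Slit1, Slit2 and Unc5b. Called lower in all 3 were 6 members (8.96%, background 14.3%): Epha2, Epha3, Ntn1, Sema4b, Sema4d and Sema4f. The 3 comparisons share no arrays in their group means, but 1 estimate of the spread, from all 18 unamplified arrays, enters each test. Without the 2 arrays that stood apart, 29 members rose and 8 fell in ST8, 28 rose and 18 fell in ST5, and 41 rose and 5 fell in ES cells (background then 22.5% and 19.8% in ST8, 25.1% and 27.7% in ST5, 21.4% and 21.1% in ES cells), with 20 higher and 3 lower in all 3 lines (background 13.5% and 13.8%).

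**Figure D1:**
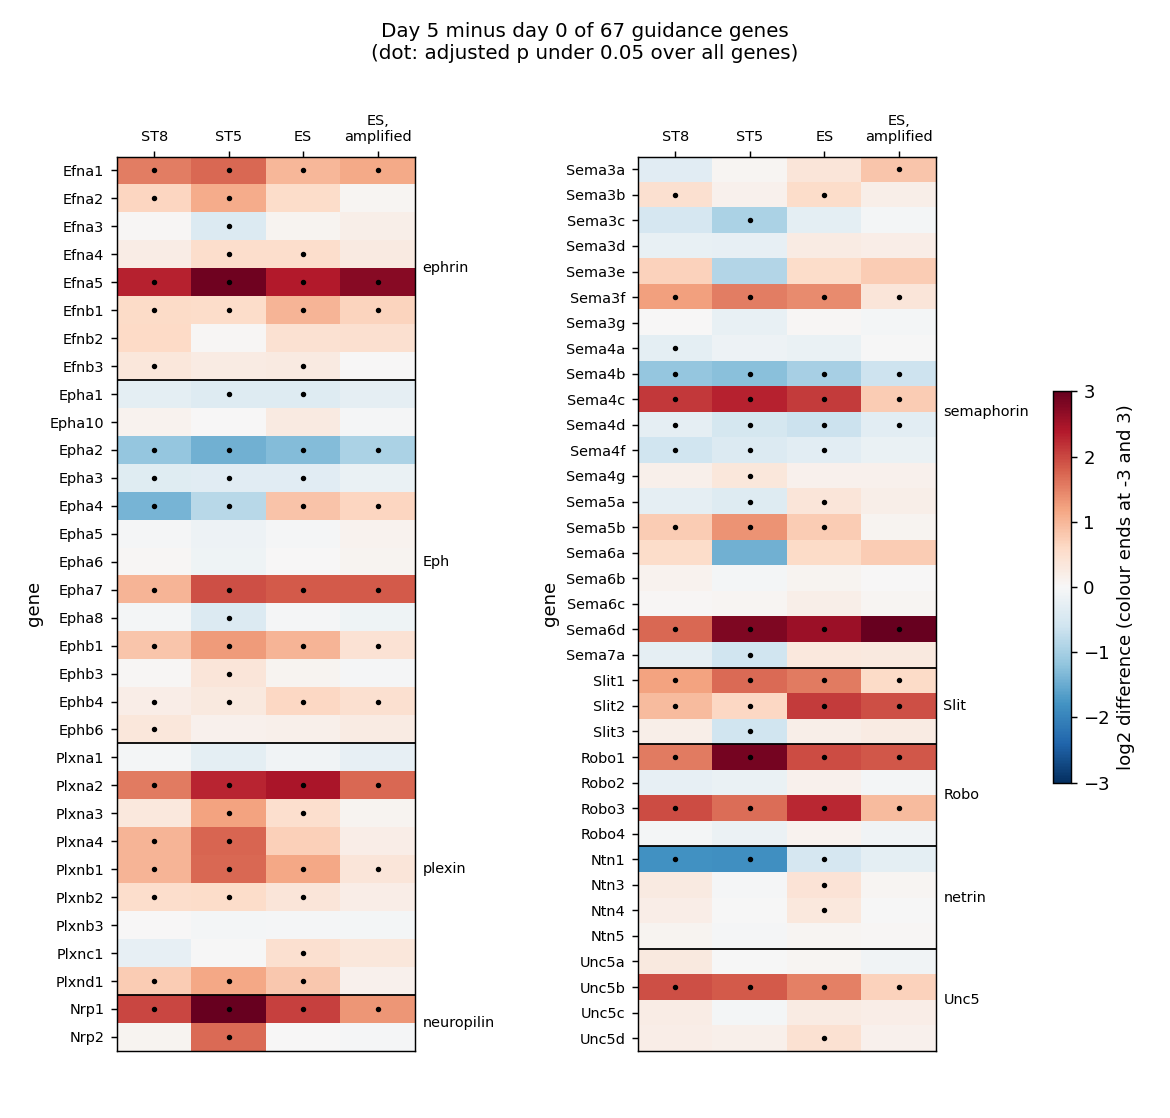
Colour gives the log2 difference of day 5 minus day 0 for each guidance gene (down the page, by family) in ST8, ST5, unamplified ES and amplified ES cells, with 3 arrays a group and a mark on genes called at an adjusted p under 0.05. Efna5, Plxna2, Sema6d and Robo1 are positive in every column, Epha2 and Sema4b negative in every column, and Epha4 is negative in the iPS clones and positive in ES cells.

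Of the 8 ephrins, 5 rose in each line (62.5%) and 1 fell, in ST5. Of all genes, 21%, 23.2% and 18.9% were called higher in ST8, ST5 and ES cells, and 24.8% lower in ST5. The counts, being of few genes, are given as a description only. The lipid-anchored A-class ligands Efna5 and Efna1 had the largest rises of the family in ST8 and ST5, and Efna5 in ES cells, where Efna1 and Efnb1 had nearly equal rises. Efna5 read 7.74, 8.37 and 7.73 in ST8 at day 5 against 5.66, 5.71 and 5.5 at day 0, 8.49, 8.37 and 8.35 at day 5 against 5.64, 5.46 and 5.39 at day 0 in ST5, and 8.4, 7.98 and 8.15 at day 5 against 5.7, 5.97 and 5.69 at day 0 in ES cells. All 9 day 5 arrays lay above the 9 day 0 arrays. The differences were 2.32 ± 0.15 in ST8 (adjusted p = 4.24e-09), 2.91 ± 0.15 in ST5 (adjusted p = 2.33e-10) and 2.39 ± 0.15 in ES cells (adjusted p = 3.15e-09). Efna1 read 6.88, 7.34 and 6.8 in ST8 at day 5 against 5.48, 5.42 and 5.55 at day 0, 7.47, 7.09 and 7.08 at day 5 against 5.74, 5.26 and 5.49 at day 0 in ST5, and 6.9, 6.56 and 6.55 at day 5 against 5.47, 5.63 and 5.91 at day 0 in ES cells, with differences of 1.53 ± 0.16, 1.72 ± 0.16 and 1.0 ± 0.16. The groups of a line did not overlap. Efnb1, a B-class ligand, rose by 0.57 in ST8, 0.56 in ST5 and 1.02 in ES cells. Efna2 and Efna4 each passed in 2 lines and Efnb3 in 2, at differences between 0.27 and 1.12. Efna3 fell in ST5 (-0.40) and did not pass in ST8 (0.04) or ES cells (0.08). Efnb2, the ligand known from arteries, read 8.14, 6.95 and 7.96 in ST8 at day 5 against 7.08, 7.16 and 7.04 at day 0, 7.2, 7.23 and 7.31 at day 5 against 7.52, 7.22 and 6.9 at day 0 in ST5, and 6.9, 7.95 and 7.93 at day 5 against 7.02, 7.15 and 7.23 at day 0 in ES cells, and it passed in no line. Its low day 5 arrays in ST8 and ES cells were the 2 that stood apart, and without them Efnb2 differed by 0.96 in ST8 and 0.8 in ES cells and passed in both.

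The Eph receptors moved in both directions, with 4 higher and 3 lower in ST8, 4 and 5 in ST5 and 4 and 3 in ES cells. That is 30.8% of the 13 higher in each line, and 23.1%, 38.5% and 23.1% lower in ST8, ST5 and ES cells. Of all genes, 21% were higher and 19.5% lower in ST8, 23.2% and 24.8% in ST5 and 18.9% and 19.7% in ES cells, so the family's counts, being of few genes, are given as a description only. Epha7, an A-class receptor, read 7.94, 8.17 and 7.61 in ST8 at day 5 against 6.89, 6.92 and 6.83 at day 0, 8.6, 8.63 and 8.58 at day 5 against 6.9, 6.56 and 6.58 at day 0 in ST5, and 8.28, 8.03 and 7.9 at day 5 against 6.13, 6.11 and 6.44 at day 0 in ES cells. The rises, with no overlap, were 1.02 ± 0.13 in ST8 (adjusted p = 1.12e-05), 1.93 ± 0.13 in ST5 (adjusted p = 7.74e-09) and 1.85 ± 0.13 in ES cells (adjusted p = 1.98e-08). Epha2, a receptor of A-class ephrins expressed in many epithelia, moved the other way. It read 8.16, 7.83 and 8.03 in ST8 at day 5 against 9.22, 9.12 and 9.17 at day 0, 7.68, 7.55 and 7.64 at day 5 against 9.29, 9.01 and 8.92 at day 0 in ST5, and 7.92, 7.72 and 7.68 at day 5 against 9.11, 9.06 and 9.05 at day 0 in ES cells. The differences were -1.16 ± 0.1 in ST8 (adjusted p = 9.13e-08), -1.45 ± 0.1 in ST5 (adjusted p = 5.64e-09) and -1.3 ± 0.1 in ES cells (adjusted p = 3.05e-08). Epha2 thus fell in each line while its ligands Efna1 and Efna5 rose. Epha4, a receptor that binds ephrins of both classes, read 7.32, 7.52 and 7.29 in ST8 at day 5 against 8.8, 8.74 and 8.78 at day 0 and 7.55, 7.68 and 7.71 at day 5 against 8.43, 8.36 and 8.64 at day 0 in ST5, but 7.53, 7.78 and 7.72 at day 5 against 6.87, 6.73 and 6.88 at day 0 in ES cells. It fell in the clones, by a difference of -1.39 ± 0.09 in ST8 (adjusted p = 3.77e-09) and -0.83 ± 0.09 in ST5 (adjusted p = 8.62e-07), and rose in ES cells (0.85 ± 0.09, adjusted p = 1.15e-06). Ephb1 rose by 0.84, 1.28 and 1.02 in ST8, ST5 and ES cells on the probe set used, but its other probe set differed by 0.04, 0.26 and 0.11. Ephb4, the receptor of Efnb2, rose by 0.2 in ST8, 0.3 in ST5 and 0.62 in ES cells, and Epha3 fell by 0.36, 0.35 and 0.35.

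The semaphorins also moved in both directions, with 5 higher and 4 lower in ST8, 5 and 6 in ST5 and 6 and 3 in ES cells. Of the 20, 25% were thus higher in ST8, 25% in ST5 and 30% in ES cells, and 20%, 30% and 15% lower. The shares of all genes were 21%, 23.2% and 18.9% higher and 19.5%, 24.8% and 19.7% lower, so these counts too are no more than a description. Sema4c, a membrane-bound ligand of Plxnb2, read 8.71, 9.19 and 8.62 in ST8 at day 5 against 6.65, 6.74 and 6.74 at day 0, 9.09, 9.01 and 9.03 at day 5 against 7.08, 6.81 and 6.33 at day 0 in ST5, and 8.86, 8.67 and 8.52 at day 5 against 6.33, 6.74 and 6.69 at day 0 in ES cells. Its rises were 2.13 ± 0.17 in ST8 (adjusted p = 5.13e-08), 2.3 ± 0.17 in ST5 (adjusted p = 1.47e-08) and 2.09 ± 0.17 in ES cells (adjusted p = 7.08e-08), without overlap in any line. Sema4b, of the same class, read 7.07, 7.24 and 7.16 in ST8 at day 5 against 8.37, 8.3 and 8.29 at day 0, 7.05, 7.07 and 7.21 at day 5 against 8.29, 8.4 and 8.42 at day 0 in ST5, and 7.13, 7.16 and 7.08 at day 5 against 8.21, 8.04 and 8.08 at day 0 in ES cells. It fell, with -1.16 ± 0.07 in ST8 (adjusted p = 1.35e-09), -1.26 ± 0.07 in ST5 (adjusted p = 4.37e-10) and -0.99 ± 0.07 in ES cells (adjusted p = 1.04e-08). Sema4d, a ligand of Plxnb1, fell by 0.28 in ST8, 0.53 in ST5 and 0.64 in ES cells on the probe set used, while its other probe set differed by 0.04, 0.06 and 0.19. Sema3f, a secreted ligand that binds Nrp2, read 7.92, 8.3 and 7.89 in ST8 at day 5 against 6.76, 6.86 and 6.81 at day 0, 8.29, 8.39 and 8.39 at day 5 against 6.9, 6.85 and 6.73 at day 0 in ST5, and 8.09, 8.16 and 8.16 at day 5 against 6.6, 6.84 and 6.73 at day 0 in ES cells. It rose by 1.23, 1.53 and 1.42, with no overlap.

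Sema6d, a membrane-spanning ligand of Plxna1, had some of the largest rises and a wide spread at day 5. It read 6.68, 8.09 and 6.59 in ST8 at day 5 against 5.26, 5.57 and 5.35 at day 0, 8.1, 8.07 and 8.01 at day 5 against 5.47, 5.36 and 4.96 at day 0 in ST5, and 8.08, 6.63 and 6.73 at day 5 against 4.59, 4.66 and 4.48 at day 0 in ES cells. The differences were 1.73 ± 0.35 in ST8 (adjusted p = 0.000775), 2.8 ± 0.35 in ST5 (adjusted p = 5.05e-06) and 2.57 ± 0.35 in ES cells (adjusted p = 2.03e-05). Without the 2 arrays that stood apart they were 1.24 in ST8 and 2.1 in ES cells, still called. Sema6a, a ligand of Plxna2 and Plxna4, read 8.64, 5.66 and 8.88 in ST8 at day 5 against 7.19, 7.19 and 7.15 at day 0, 5.42, 5.99 and 5.83 at day 5 against 7.42, 7.12 and 6.98 at day 0 in ST5, and 6.96, 9.26 and 8.97 at day 5 against 7.6, 7.92 and 7.97 at day 0 in ES cells. It was low in all ST5 arrays and in the 2 arrays that stood apart, and it passed in no line. Without those arrays its differences were 1.59 in ST8, -1.43 in ST5 and 1.29 in ES cells, and each passed. ST8 and ES cells then had 2 arrays at day 5. No ST5 array was left out, so the ST5 difference was the same with all arrays (adjusted p = 0.0821). What changed was the spread shared by the groups. Sema3e, a secreted ligand that binds Plxnd1 without a neuropilin, read 7.35, 5.06 and 7.59 in ST8 at day 5 against 5.93, 6.11 and 5.91 at day 0, 4.99, 5.11 and 5.05 at day 5 against 6.06, 5.9 and 5.8 at day 0 in ST5, and 5.92, 8.11 and 7.61 at day 5 against 6.46, 6.53 and 6.99 at day 0 in ES cells. It had the same pattern, passing in no line with all arrays and at 1.49, -0.87 and 1.2 in ST8, ST5 and ES cells without the 2. The ST5 difference was again the same with all arrays (adjusted p = 0.2). Sema5b rose in each line (0.77 in ST8, 1.34 in ST5 and 0.75 in ES cells). Sema3c fell by 0.95 in ST5, and Sema5a differed in sign, having risen by 0.37 in ES cells and fallen by 0.38 in ST5.

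**Figure D2:**
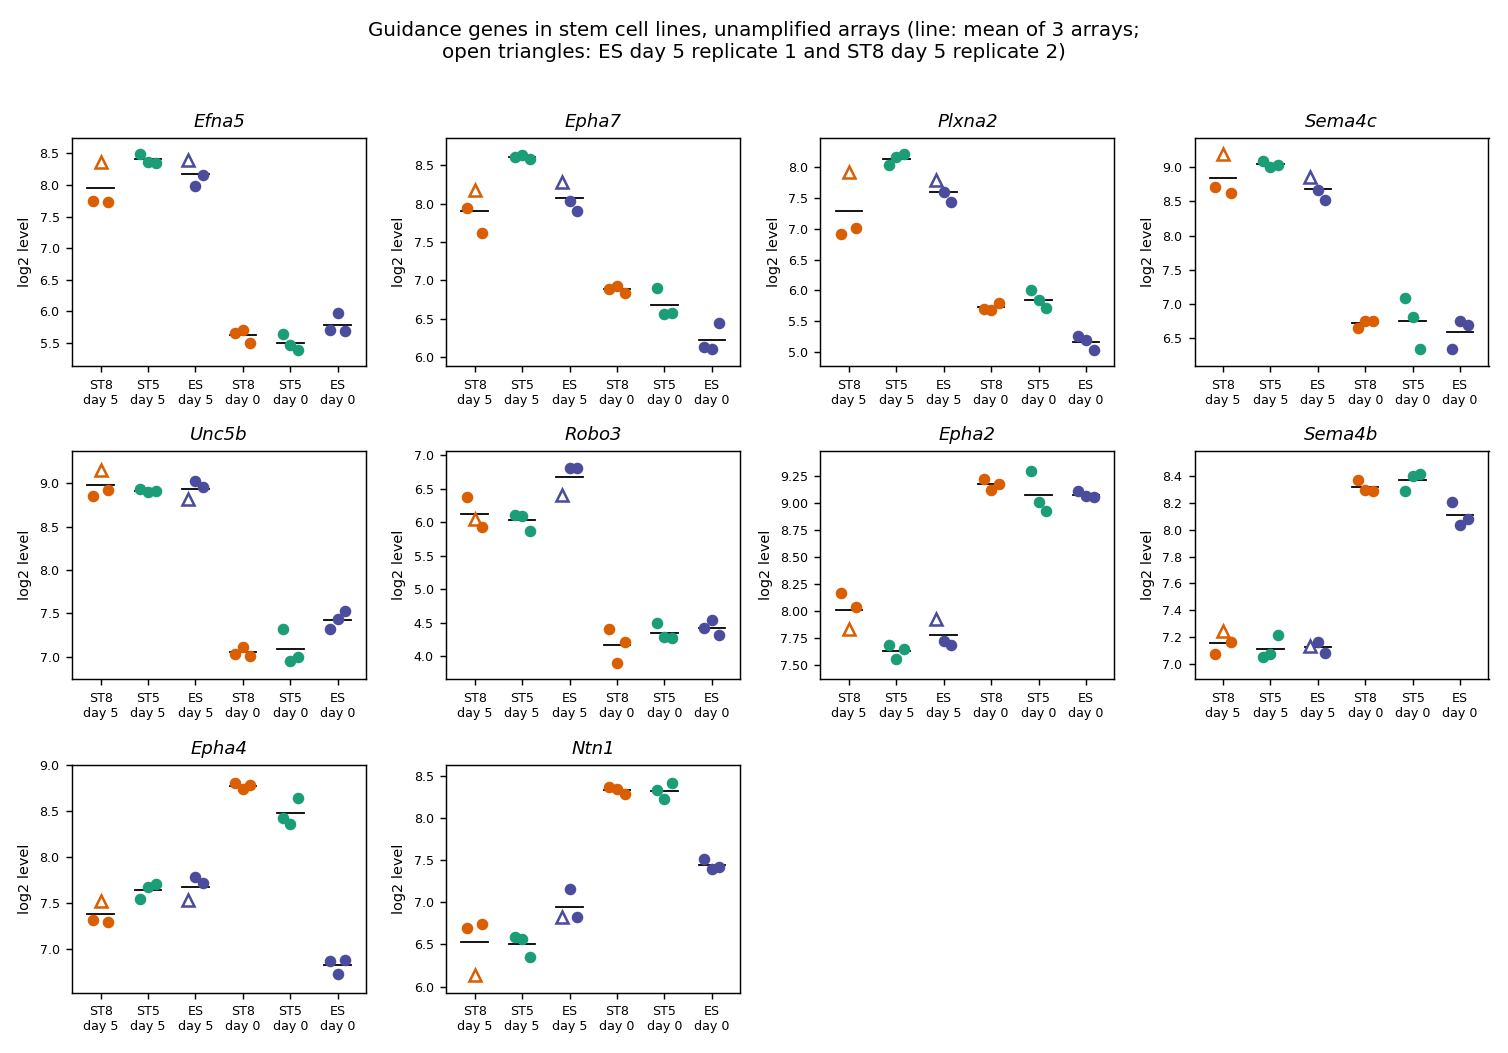
Log2 expression of 10 guidance genes on each unamplified array (points) with the group mean (bar), for ST8, ST5 and ES cells at day 5 and then at day 0; open triangles mark ES day 5 replicate 1 and ST8 day 5 replicate 2. Efna5, Epha7, Plxna2, Sema4c, Unc5b and Robo3 lie higher at day 5 in each line and Epha2, Sema4b and Ntn1 lower, while Epha4 lies lower at day 5 in the clones and higher in ES cells.

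Plexins, the semaphorin receptors, had rises and no called fall in any line. Of 9 plexins, 5 rose in ST8 (55.6%), 6 in ST5 (66.7%) and 6 in ES cells (66.7%), beside 21%, 23.2% and 18.9% of all genes called higher and 19.5%, 24.8% and 19.7% called lower. Plxna2 read 6.92, 7.93 and 7.02 in ST8 at day 5 against 5.69, 5.68 and 5.8 at day 0, 8.03, 8.17 and 8.22 at day 5 against 6.0, 5.84 and 5.71 at day 0 in ST5, and 7.79, 7.6 and 7.43 at day 5 against 5.25, 5.19 and 5.03 at day 0 in ES cells. The groups of a line did not overlap, and the differences were 1.57 ± 0.19 in ST8 (adjusted p = 4.17e-06), 2.29 ± 0.19 in ST5 (adjusted p = 4.45e-08) and 2.45 ± 0.19 in ES cells (adjusted p = 3.41e-08). Plxnb1, the receptor of Sema4d, read 8.05, 8.73 and 8.12 in ST8 at day 5 against 7.3, 7.26 and 7.3 at day 0, 8.84, 8.85 and 8.92 at day 5 against 7.25, 6.99 and 7.2 at day 0 in ST5, and 8.63, 8.17 and 8.33 at day 5 against 7.15, 7.29 and 7.24 at day 0 in ES cells. It rose by 1.01 in ST8, 1.72 in ST5 and 1.15 in ES cells. Plxnd1, the receptor of Sema3e, rose by 0.75, 1.15 and 0.8 in ST8, ST5 and ES cells, and Plxnb2, the receptor of Sema4c, by 0.52, 0.56 and 0.37. Plxna4 read 5.69, 7.12 and 5.69 in ST8 at day 5 against 5.09, 5.1 and 5.2 at day 0, 7.23, 6.98 and 7.1 at day 5 against 5.34, 5.31 and 5.4 at day 0 in ST5, and 6.44, 5.56 and 5.61 at day 5 against 5.29, 5.25 and 4.94 at day 0 in ES cells. It rose in ST5 (1.75 ± 0.29, adjusted p = 7.99e-05) and in ST8 (1.03 ± 0.29, adjusted p = 0.00839), and in ES cells the difference was 0.71 ± 0.29, adjusted p = 0.065. The ST8 difference was 0.56 without the array that stood apart and the adjusted p was 0.0708 when only the ST8 groups were fitted.

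Nrp1 and Nrp2, the neuropilins, bind class 3 semaphorins and also serve as co-receptors of vascular growth factors. Nrp1 read 7.39, 9.55 and 7.29 in ST8 at day 5 against 5.96, 5.93 and 6.31 at day 0, 9.81, 9.73 and 9.75 at day 5 against 5.96, 6.06 and 5.56 at day 0 in ST5, and 9.01, 6.61 and 6.7 at day 5 against 5.18, 5.36 and 5.65 at day 0 in ES cells. The ST5 arrays and the 2 that stood apart were the highest, and the day 5 and day 0 arrays of a line did not overlap. The differences were 2.01 ± 0.55 in ST8 (adjusted p = 0.0077), 3.9 ± 0.55 in ST5 (14.9-fold, adjusted p = 1.74e-05) and 2.04 ± 0.55 in ES cells (adjusted p = 0.00723). Without the array that stood apart the differences were 1.27 in ST8 (adjusted p = 0.0409, without ST8 replicate 2) and 1.26 in ES cells (adjusted p = 0.037, without ES replicate 1). Nrp2 read 5.74, 7.37 and 6.05 in ST8 at day 5 against 6.38, 6.24 and 6.29 at day 0, 7.97, 7.67 and 7.72 at day 5 against 6.17, 6.05 and 6.07 at day 0 in ST5, and 6.63, 5.78 and 5.77 at day 5 against 6.04, 5.94 and 6.16 at day 0 in ES cells. It rose in ST5 (1.69 ± 0.3, adjusted p = 0.000152), while the differences in ST8 (0.08 ± 0.3) and ES cells (0.01 ± 0.3) did not pass. Without the 2 arrays they were -0.41 in ST8 and -0.27 in ES cells, and both passed as falls.

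Slit1 and Slit2, ligands of Robo receptors, rose in all 3 lines. Slit1 read 6.31, 7.11 and 6.04 in ST8 at day 5 against 4.99, 5.5 and 5.32 at day 0, 7.07, 6.83 and 6.98 at day 5 against 5.34, 5.19 and 5.27 at day 0 in ST5, and 7.49, 6.41 and 6.46 at day 5 against 5.25, 5.31 and 5.13 at day 0 in ES cells. The differences were 1.21 ± 0.26 in ST8 (adjusted p = 0.00111), 1.69 ± 0.26 in ST5 (adjusted p = 3.8e-05) and 1.55 ± 0.26 in ES cells (adjusted p = 0.000138), and without the 2 arrays 0.9 in ST8 and 1.2 in ES cells. Slit2 read 8.41, 7.77 and 8.74 in ST8 at day 5 against 7.24, 7.49 and 7.37 at day 0, 7.96, 7.91 and 8.0 at day 5 against 7.37, 7.29 and 7.4 at day 0 in ST5, and 8.27, 9.3 and 9.27 at day 5 against 6.67, 6.82 and 7.06 at day 0 in ES cells. It rose by 0.94 ± 0.24 in ST8 (adjusted p = 0.00397), 0.61 ± 0.24 in ST5 (adjusted p = 0.0439) and 2.1 ± 0.24 in ES cells (adjusted p = 2.59e-06). The ST5 call was lost when any of its 6 arrays was left out and kept when only the ST5 groups were fitted. Slit3 fell in ST5 (-0.60) and differed by 0.17 in ST8 and in ES cells without passing.

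Robo1, a receptor of Slits, read 8.75, 10.22 and 8.62 in ST8 at day 5 against 7.71, 7.56 and 7.64 at day 0, 10.29, 10.33 and 10.34 at day 5 against 7.37, 7.41 and 7.6 at day 0 in ST5, and 9.95, 8.53 and 8.72 at day 5 against 7.17, 6.92 and 7.24 at day 0 in ES cells. It rose by 1.56 ± 0.35 in ST8 (adjusted p = 0.00165), 2.86 ± 0.35 in ST5 (adjusted p = 3.48e-06) and 1.96 ± 0.35 in ES cells (adjusted p = 0.000252), and by 1.05 in ST8 and 1.52 in ES cells without the 2 arrays. Robo3, a family member best known from the crossing of commissural axons, read 6.38, 6.05 and 5.92 in ST8 at day 5 against 4.4, 3.9 and 4.21 at day 0, 6.11, 6.09 and 5.87 at day 5 against 4.49, 4.29 and 4.27 at day 0 in ST5, and 6.4, 6.81 and 6.8 at day 5 against 4.42, 4.54 and 4.31 at day 0 in ES cells. Its rises were 1.95 ± 0.14 in ST8 (adjusted p = 2.14e-08), 1.67 ± 0.14 in ST5 (adjusted p = 8.27e-08) and 2.25 ± 0.14 in ES cells (adjusted p = 4.47e-09), with no overlap. Robo2, which also binds Slits, and Robo4, known from endothelium, passed in no line, at differences between -0.24 and 0.14.

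Ntn1, the prototype netrin, fell in each line while its receptor Unc5b rose. Ntn1 read 6.7, 6.14 and 6.74 in ST8 at day 5 against 8.37, 8.34 and 8.29 at day 0, 6.59, 6.57 and 6.35 at day 5 against 8.33, 8.23 and 8.42 at day 0 in ST5, and 6.83, 7.16 and 6.83 at day 5 against 7.52, 7.4 and 7.42 at day 0 in ES cells. The falls were -1.81 ± 0.13 in ST8 (adjusted p = 1.77e-08), -1.83 ± 0.13 in ST5 (adjusted p = 1.12e-08) and -0.51 ± 0.13 in ES cells (adjusted p = 0.00509). Unc5b read 8.86, 9.16 and 8.92 in ST8 at day 5 against 7.03, 7.11 and 7.01 at day 0, 8.94, 8.9 and 8.91 at day 5 against 7.32, 6.95 and 7.0 at day 0 in ST5, and 8.82, 9.03 and 8.96 at day 5 against 7.32, 7.43 and 7.53 at day 0 in ES cells. It rose by 1.93 ± 0.1 in ST8 (adjusted p = 2.74e-10), 1.83 ± 0.1 in ST5 (adjusted p = 4.37e-10) and 1.51 ± 0.1 in ES cells (adjusted p = 5.45e-09), and no array of day 5 overlapped those of day 0. Ntn3, Ntn4 and Unc5d rose in ES cells by 0.42, 0.31 and 0.45 and did not pass in ST8 or ST5. With all arrays in the fits, 10 members were called in none of the comparisons made here: Epha6, Epha10, Sema3g, Sema6a, Sema6b, Sema6c, Plxnb3, Robo4, Ntn5 and Unc5a.

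Partner and signalling genes of the same pathways were taken from a list of 44, of which 42 had a probe set. Of these, 19 rose and 7 fell in ST8, 24 and 10 in ST5 and 17 and 6 in ES cells. The rises made up 45.2%, 57.1% and 40.5% of the 42 in ST8, ST5 and ES cells, beside 21%, 23.2% and 18.9% of all genes. The falls made up 16.7%, 23.8% and 14.3%, beside 19.5%, 24.8% and 19.7%. Because the list was chosen with earlier results of these data known, these shares are given as a description only. Neo1, which encodes the netrin receptor neogenin, rose by 1.37 ± 0.1 in ST8 (adjusted p = 1.74e-08), 1.92 ± 0.1 in ST5 (adjusted p = 2.65e-10) and 1.29 ± 0.1 in ES cells (adjusted p = 4e-08). Dcc, the other attractive netrin receptor, passed in no line, and its group means lay between 4.24 and 5.14 over all 10 groups. Flrt3, a membrane protein that binds Unc5 receptors and acts in endoderm of the mouse embryo, rose by 1.73 ± 0.35 in ST8 (adjusted p = 0.000717), 2.65 ± 0.35 in ST5 (adjusted p = 8.41e-06) and 2.32 ± 0.35 in ES cells (adjusted p = 5.36e-05). Srgap1, a GTPase-activating protein downstream of Robo, rose by 1.89 in ST8, 2.9 in ST5 and 1.62 in ES cells. Met, a receptor kinase that associates with B plexins, rose by 1.72, 2.33 and 1.6. Tiam1, an activator of the GTPase Rac, fell by 0.81 in ST8, 0.84 in ST5 and 0.77 in ES cells. Crmp1, a mediator of semaphorin signals, fell by 2.08 in ST5.

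**Figure D3:**
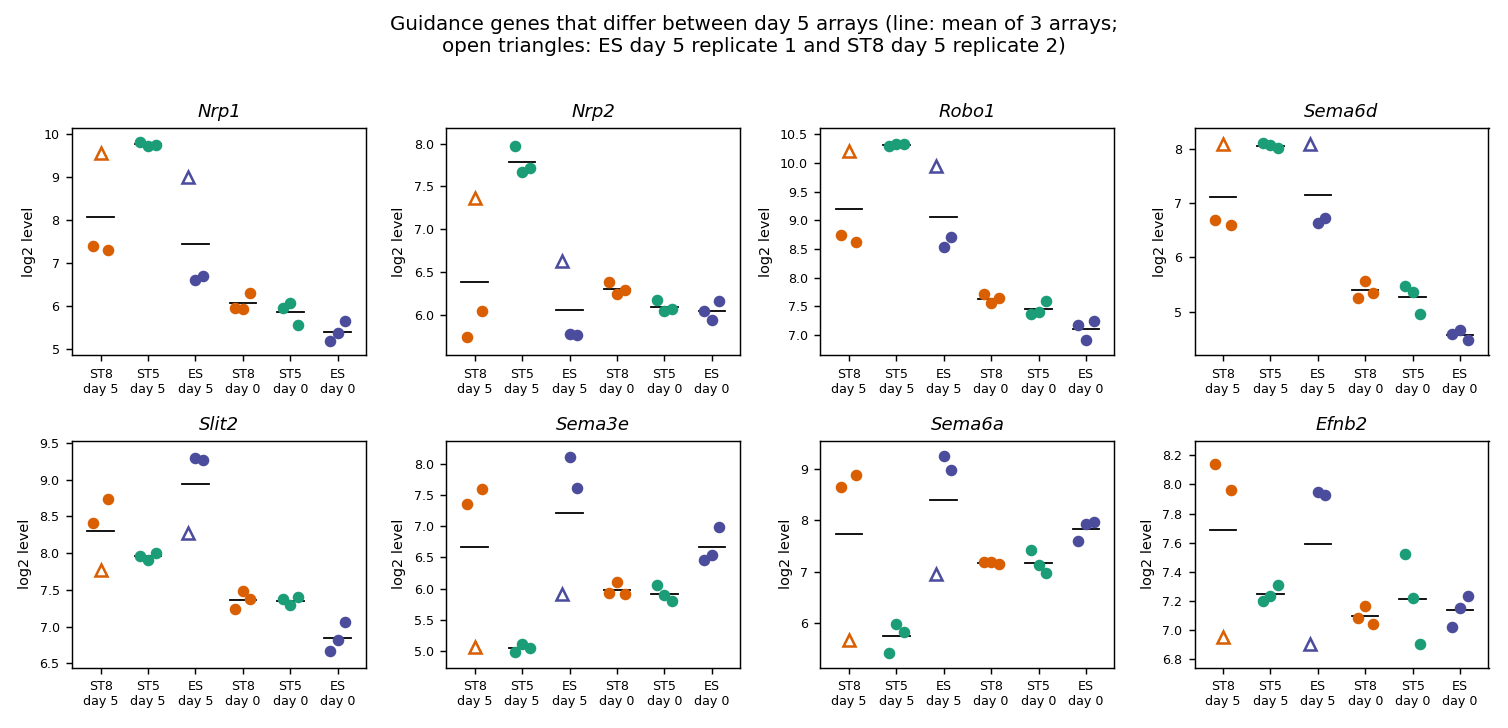
Log2 expression of 8 guidance genes on each unamplified array (points) with the group mean (bar), for ST8, ST5 and ES cells at day 5 and then at day 0; open triangles mark ES day 5 replicate 1 and ST8 day 5 replicate 2. In Nrp1, Robo1 and Sema6d the triangles lie above the other arrays of their group, and in Sema3e, Sema6a and Efnb2 below them.

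Before differentiation the iPS clones, taken as the mean of ST8 and ST5, differed from ES cells in 9 members. At day 0, 8 were higher in the clones (background 2.25%) and 1 lower (background 2.62%), and the median difference was 0.04 against -0.01 over all genes. Epha4 had the largest difference, with 8.8, 8.74 and 8.78 in ST8 and 8.43, 8.36 and 8.64 in ST5 against 6.87, 6.73 and 6.88 in ES cells (1.8 ± 0.08, adjusted p = 3.71e-10). All 6 clone arrays lay above the ES arrays. Ntn1 was also higher in the clones, with 8.37, 8.34 and 8.29 in ST8 and 8.33, 8.23 and 8.42 in ST5 against 7.52, 7.4 and 7.42 in ES cells (0.88 ± 0.11, adjusted p = 0.000186). Plxna2, Plxnc1 (the receptor of Sema7a), Epha7, Efna3, Ephb4 and Sema4b were higher by 0.63, 0.56, 0.55, 0.30, 0.27 and 0.23. Unc5b was lower by 0.36, with overlapping arrays. The count of members was 3 without ES day 0 replicate 2 (background then 1.05% higher and 1.61% lower), and 3 to 7 as each array was left out. It was 18 when only the groups of the comparison were fitted (14 higher and 4 lower, background then 4.08% and 4.63%). Without the 2 day 5 arrays that stood apart, whose spread enters this test, it was 15 higher and 5 lower (background then 5.21% and 6.01%).

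At day 5, the clones had 1 member higher than ES cells (background 4.31%) and 7 lower (background 4.29%). With the arrays shifted to a common median this split was 2 higher and 5 lower. Nrp2 was the higher member (1.03 ± 0.26, adjusted p = 0.0264), the ST5 arrays and ST8 replicate 2 being the high ones. Its call was lost without ES replicate 2 (adjusted p = 0.143), without ES replicate 3 (0.181), without ST5 replicate 1 (0.0542) and when only the groups of the contrast were fitted (0.149). Slit2 was lower in the clones (-0.81 ± 0.2, adjusted p = 0.0266, with overlapping arrays), as was Robo3 (-0.6 ± 0.12, adjusted p = 0.0106, without overlap). Sema3d, Sema5a, Ntn1, Ntn3 and Epha8 were lower by 0.49, 0.45, 0.43, 0.38 and 0.34. All 8 calls depend on the arrays used. When only the groups of the comparison were fitted, limma called 0 members, with 16 at an unadjusted p under 0.05 (background then 0.326% higher and 0.376% lower). It likewise called 0 without ES replicate 2 (12 at an unadjusted p under 0.05, background 0.838% and 0.777%). Without ES replicate 3 it called 0 (15 at an unadjusted p under 0.05, background 0.552% and 0.617%), but 26 without ES replicate 1. The share of all genes for the 26 is not given here, so that count is not read as a result about guidance genes. Without both arrays that stood apart, 11 members were higher and 18 lower (background then 12.7% and 13%). Nrp1 was then higher in the clones by 1.9, and Sema6a and Sema3e lower by 1.86 and 1.60.

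The response itself, day 5 minus day 0, differed between the clones and ES cells for 6 members, all with the lower value in the clones (background 1.05% lower and 1.09% higher). Epha4 responded with -1.11 as the mean of the clones (-1.39 in ST8 and -0.83 in ST5) and 0.85 in ES cells, a difference of -1.96 ± 0.11, adjusted p = 7.55e-08. Ntn1 responded with -1.82 in the clones and -0.51 in ES cells, a difference of -1.31 ± 0.16, adjusted p = 0.000435. For both genes the clones were the higher cells at day 0, as given above, and at day 5 Epha4 differed between clones and ES cells by -0.16 ± 0.08, which did not pass. Slit2 responded with 0.77 in the clones and 2.10 in ES cells (-1.32 ± 0.29, adjusted p = 0.0263). This call was lost without ES day 5 replicate 2 or 3 (adjusted p = 0.0928 and 0.1) and without ES day 0 replicate 1 or 2 (0.085 and 0.0606). Sema5a, Plxnc1 and Ephb4 differed by -0.7 ± 0.15, -0.62 ± 0.13 and -0.38 ± 0.08. These comparisons of clones with ES cells share the ES arrays. Without the 2 arrays that stood apart, 7 responses were higher and 17 lower in the clones (background then 8% and 6.24%).

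The clones ST8 and ST5 were compared at each day. At day 0, limma called 0 members in either direction (background 0.0502% higher and 0.015% lower in ST8), with 1 at an unadjusted p under 0.05. With the replicate number as a block, 0 were called as well. At day 5, ST8 had 3 members higher than ST5 (background 8.29%) and 11 lower (background 6.3%). Nrp2 was lower in ST8 (-1.4 ± 0.3, adjusted p = 0.00804), as was Robo1 (-1.12 ± 0.35, adjusted p = 0.0415). Both calls were sensitive to the arrays used: Nrp2 had an adjusted p of 0.0527 without ST8 replicate 1, 0.0533 without ST8 replicate 3 and 0.133 when only ST8 and ST5 at day 5 were fitted, and Robo1 had 0.165 in that fit and 0.0953 to 0.213 when any of the arrays other than ST8 replicate 2 was left out. Plxna4, Plxna2, Epha7, Plxna3, Sema5b and Plxnb1 were lower in ST8 by 0.94, 0.85, 0.70, 0.68, 0.63 and 0.57. Slit3, Epha2 and Sema4d were higher by 0.80, 0.38 and 0.31. All 14 calls were lost when only ST8 and ST5 at day 5 were fitted, where limma called 0 members, with 25 at an unadjusted p under 0.05. Without ST8 replicate 1, 2 members were called, Epha7 and Plxna3 (background then 2.09% higher and 1.49% lower). Without ST8 replicate 3 the same 2 were called (background then 2.18% and 1.2%), and without ST8 replicate 2, 33. The share of all genes for the 33 is not given here, so that count is not read as a result about guidance genes. Without both arrays that stood apart, 15 members were higher and 21 lower in ST8 (background then 17.5% and 15.8%). Sema6a and Sema3e were then higher by 3.01 and 2.42, and Nrp1, Nrp2, Robo1, Sema6d and Plxna4 lower by 2.43, 1.89, 1.63, 1.43 and 1.41.

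ES cells were also measured after amplification. There, 19 members rose at day 5 (background 13%) and 3 fell (background 13.8%), and the median difference was 0.17 against -0.02 over all genes. Of the 30 members that rose on unamplified arrays, 18 rose on amplified ones too. That is 60% of the unamplified and 94.7% of the 19 amplified rises, against 59.1% and 85.7% for all genes. Of the 7 members that fell on unamplified arrays, 3 fell on amplified ones too (42.9%, against 60.7% for all genes). Epha1, Epha3, Ntn1 and Sema4f did not pass there, Ntn1 differing by -0.30 ± 0.13 (adjusted p = 0.114). The labels do not say whether both sets of ES arrays came from the same RNA. In both sets replicate 1 at day 5 stood apart, with Nrp1, Robo1 and Sema6d higher and Efnb2, Sema3e, Sema6a and Slit2 lower. Whether the sets are independent was not tested, so the shared calls are not read as replication. The rises of at least 1 numbered 8. Sema6d read 8.99, 7.38 and 7.34 at day 5 against 4.73, 4.98 and 5.03 at day 0 (2.99 ± 0.35, adjusted p = 3.6e-05). Efna5 read 8.76, 8.42 and 8.5 at day 5 against 5.75, 6.04 and 5.72 at day 0 (2.73 ± 0.12, adjusted p = 7.51e-09). In both genes the day 5 and day 0 arrays lay far apart. The Slit ligand Slit2 read 7.99, 8.98 and 9.1 at day 5 against 6.82, 6.82 and 6.61 at day 0 (1.94 ± 0.28, adjusted p = 0.000189). Its receptor Robo1 read 9.62, 8.13 and 8.3 at day 5 against 6.82, 6.74 and 6.86 at day 0 (1.87 ± 0.28, adjusted p = 0.00024). Replicate 1 at day 5, which stood apart, was the lowest day 5 array in Slit2 and the highest in Sema6d and Robo1. The receptors Epha7 and Plxna2 also had groups without overlap. Epha7 read 8.44, 8.28 and 8.3 at day 5 against 6.28, 6.76 and 6.43 at day 0 (1.85 ± 0.13, adjusted p = 3.49e-07). Plxna2 read 7.28, 6.94 and 7.1 at day 5 against 5.25, 5.37 and 5.55 at day 0 (1.72 ± 0.12, adjusted p = 4.67e-07). Neither had a day 5 array far from the other 2. Nrp1 read 7.86, 5.94 and 6.07 at day 5 against 5.25, 5.32 and 5.33 at day 0 (1.32 ± 0.37, adjusted p = 0.017), the highest array being replicate 1. Efna1 read 6.72, 6.59 and 6.69 at day 5 against 5.86, 5.54 and 5.22 at day 0 (1.13 ± 0.13, adjusted p = 3.55e-05). None of the 8 had overlapping groups, but neither had some members that did not pass, such as Plxnc1, Efna4 and Ephb6. The share of all genes without overlap is not given here. Epha2 had the largest of the 3 falls (-0.94). Sema3a, a secreted repellent that binds Nrp1, rose on amplified arrays (0.83) and did not pass on unamplified ones (0.37). Nrp1 differed by 0.71 without amplified day 5 replicate 1 (adjusted p = 0.00378), which stood apart. Its adjusted p was 0.0501 without amplified day 0 replicate 1, and 0.068 when only the 2 ES groups were fitted.

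In the embryo, foregut endoderm differed from the ENDM1-negative cells in 14 members, with 5 higher (background 3.71%) and 9 lower (background 4.43%). None of the 14 had overlapping groups, but neither had some members that did not pass, such as Unc5c and Epha4. The share of all genes without overlap is not given here. Nrp1 and Robo2 were the members higher by at least 1. Nrp1 read 8.45, 8.99 and 8.38 in foregut against 6.61, 6.42 and 6.43 in ENDM1-negative cells (2.12 ± 0.37, adjusted p = 0.00366). Robo2 read 8.58, 8.76 and 8.24 in foregut against 6.84, 6.42 and 6.45 in ENDM1-negative cells (1.95 ± 0.16, adjusted p = 1.27e-05). Efna1, Slit3 and Plxnb1 were higher by 0.56, 0.49 and 0.46. Of the secreted semaphorins, 3 were lower in foregut. Sema3a read 6.06, 5.98 and 6.31 in foregut against 9.1, 8.93 and 9.22 in ENDM1-negative cells (-2.97 ± 0.2, adjusted p = 2.48e-06). Sema3e read 5.26, 5.64 and 5.68 in foregut against 7.37, 7.13 and 7.35 in ENDM1-negative cells (-1.76 ± 0.34, adjusted p = 0.00654). Sema3d, of the same class, read 4.71, 4.74 and 5.18 in foregut against 6.14, 5.54 and 6.26 in ENDM1-negative cells (-1.1 ± 0.2, adjusted p = 0.00422). The receptor Nrp2 was lower too, with 6.34, 6.45 and 6.26 in foregut against 7.51, 7.41 and 7.66 in ENDM1-negative cells (-1.18 ± 0.17, adjusted p = 0.00129), so the neuropilins differed in opposite directions. Sema5a, a membrane-bound semaphorin, read 5.73, 5.66 and 5.58 in foregut against 6.9, 6.37 and 6.7 in ENDM1-negative cells (-1.0 ± 0.13, adjusted p = 0.000426). Plxnc1, Plxna2, Epha7 and Plxnd1 were lower by 0.67, 0.59, 0.48 and 0.47. Of the 42 partner genes measured, 2 were higher and 3 lower, beside 3.71% of all genes higher and 4.43% lower, given as a description only. The called partner genes included Flrt2 (1.34 higher), Vav3 (1.35 lower) and Crmp1 (0.98 lower).

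Markers of other cell types also differed between these embryo cells. Foregut cells were higher in 7 of 8 visceral or yolk sac endoderm markers (mean level over the list, 7.81 to 9.24 on foregut arrays against 5.77 to 6.55 on ENDM1-negative ones), likewise in 7 of 8 definitive endoderm markers (7.43 to 7.77 against 6.31 to 6.48) and in 5 of 8 foregut markers (7.38 to 7.54 against 6.38 to 6.64). The foregut markers Nkx2-1 (5.26 against 4.99), Nkx2-3 (5.52 against 5.29) and Otx2 (8.87 against 9.22) did not pass. Foregut cells were lower in 5 of 8 endothelial markers (4.94 to 5.10 against 6.01 to 6.58), with Cdh5 at 5.44 in foregut against 8.15 in ENDM1-negative cells. They were also lower in 3 of 5 neural crest markers (5.13 to 5.34 against 6.19 to 6.34), 3 of 6 neural tube markers (5.26 to 5.55 against 6.15 to 6.31), 5 of 6 surface ectoderm markers (5.94 to 5.99 against 7.03 to 7.23) and 3 of 8 pluripotency markers (5.58 to 5.90 against 6.18 to 6.47). The mean level of the blood markers was 6.50 to 6.63 on foregut arrays against 6.20 to 6.47 on ENDM1-negative ones. Neuropilins, plexins and class 3 semaphorins are known from endothelium, neural crest and neural tube. The part of these cell types in the differences of the guidance genes was not tested.

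**Figure D4:**
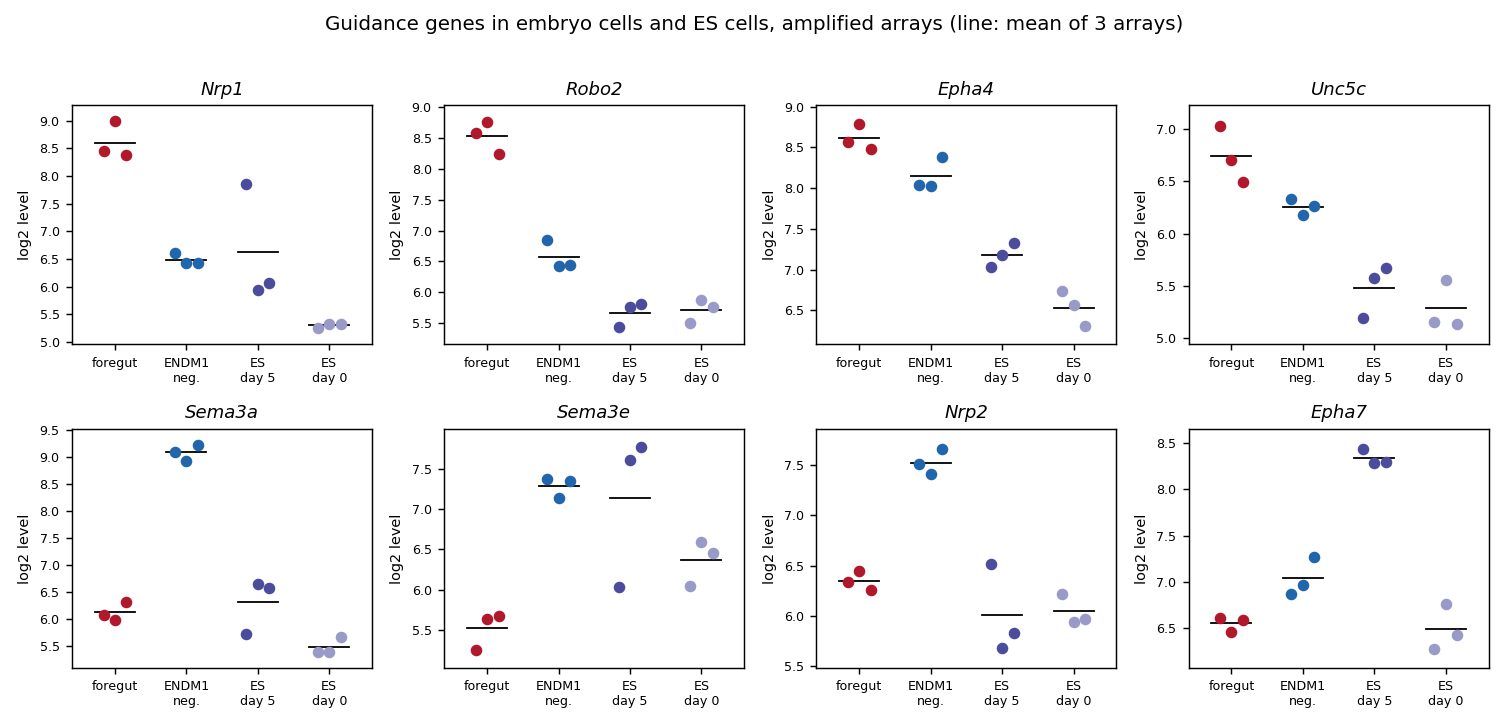
Log2 expression of 8 guidance genes on each amplified array (points) with the group mean (bar), for E8.25 foregut endoderm, ENDM1-negative embryo cells, ES cells at day 5 and ES cells at day 0, 3 arrays each. Nrp1 and Robo2 are highest in foregut, Sema3a is lower in foregut than in ENDM1-negative cells, and Epha7 and Sema3e are lower in foregut than in ES cells at day 5.

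Set against amplified ES cells at day 5, foregut endoderm was higher in 18 members (background 14.7%) and lower in 7 (background 9.42%), with a median difference of 0.15 against 0.08 over all genes. With the arrays shifted to a common median the split was 14 higher and 8 lower, and it was the same after a further quantile normalization. The shares of all genes called in these 2 settings are not given here. Embryo and ES cells also differ in strain, RNA kit and sort, which cannot be told apart from the cell type, and both foregut comparisons share the foregut arrays. Robo2 read 8.58, 8.76 and 8.24 in foregut against 5.43, 5.76 and 5.81 in ES cells at day 5 (2.86 ± 0.16, adjusted p = 2.32e-07). Nrp1 was higher too, with 8.45, 8.99 and 8.38 in foregut against 7.86, 5.94 and 6.07 in ES cells (1.98 ± 0.37, adjusted p = 0.00208). Epha4 read 8.57, 8.79 and 8.48 in foregut against 7.03, 7.18 and 7.33 in ES cells at day 5 (1.43 ± 0.13, adjusted p = 1.25e-05). For these 3 genes every foregut array lay above every ES array. The netrin receptor Unc5c read 7.03, 6.7 and 6.49 in foregut against 5.19, 5.58 and 5.67 in ES cells (1.26 ± 0.16, adjusted p = 0.000133). Efna1 read 7.75, 7.68 and 7.86 in foregut against 6.72, 6.59 and 6.69 in ES cells (1.1 ± 0.13, adjusted p = 0.000102). Efnb2 read 9.5, 9.25 and 9.43 in foregut against 7.56, 8.72 and 8.61 in ES cells (1.1 ± 0.23, adjusted p = 0.00469). These 6 were all the members higher in foregut by at least 1 with all arrays. The ES array at 7.56 in Efnb2 and 7.86 in Nrp1 was replicate 1, which stood apart. The mean of the other 2 was 8.66 in Efnb2, against 9.4 in foregut, and 6.01 in Nrp1. Efnb2 thus reached 1 only with that array.

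Of the 7 members lower in foregut than in ES cells at day 5, 5 were lower by at least 1. The amplified ES arrays at day 5 are shared with the comparison of day 5 and day 0. Sema6d read 6.0, 5.6 and 6.05 in foregut against 8.99, 7.38 and 7.34 in ES cells at day 5 (-2.02 ± 0.35, adjusted p = 0.00134). Slit2 read 6.69, 6.55 and 7.38 in foregut against 7.99, 8.98 and 9.1 in ES cells (-1.82 ± 0.28, adjusted p = 0.000581). Epha7 read 6.61, 6.46 and 6.59 in foregut against 8.44, 8.28 and 8.3 in ES cells (-1.79 ± 0.13, adjusted p = 1.46e-06). In each of these 3 genes all foregut arrays lay below all ES arrays. Sema3e read 5.26, 5.64 and 5.68 in foregut against 6.04, 7.6 and 7.76 in ES cells at day 5 (-1.61 ± 0.34, adjusted p = 0.00433). Plxna2 read 5.71, 5.75 and 5.7 in foregut against 7.28, 6.94 and 7.1 in ES cells (-1.39 ± 0.12, adjusted p = 8.65e-06). Robo3 and Efna5 were lower by 0.69 and 0.55. Of the 42 partner genes measured, 9 were higher and 4 lower, beside 14.7% of all genes higher and 9.42% lower. These counts, being of few genes, are given as a description only. The lower partner genes included Rras, a small GTPase on which plexins act (1.39 lower). In this comparison 8 of 8 visceral or yolk sac endoderm markers were higher in foregut (7.81 to 9.24 against 5.96 to 6.49), 3 of 8 endothelial markers were higher (4.94 to 5.10 against 4.60 to 4.70), and of the definitive endoderm markers 1 was higher and 3 lower. The mean level of the blood markers was 6.50 to 6.63 on foregut arrays against 5.01 to 5.25 on ES arrays. That of the pluripotency markers was 5.58 to 5.90 against 6.73 to 7.26. The part of all these markers' cells in the differences of the guidance genes was not tested.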

How the data were processed

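The authors deposited log2 expression per probe set of Affymetrix Mouse Gene 1.0 ST arrays, made with RMA per the submitters' processing notes; its version, and whether unamplified and amplified arrays were processed together, is not given in the sources used here. Per the labels' protocols, the miRNeasy kit served for RNA of the cultured lines and RNeasy Micro for the embryos, and 12 of the 30 arrays were amplified with the NuGEN WT-Ovation Pico system. Of 35556 probe sets, 21789 had a single gene; keeping the one with the highest mean over the arrays left 19938 genes. No array was left out.

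The tests used limma (version 3.58.1) under R (version 4.3.3), with files read by the package data.table (version 1.17.8). The 6 groups without amplification were fitted together, as a mean for each group with 12 residual degrees of freedom, and the 4 amplified groups likewise with 8. Tests were two-sided and moderated, with Benjamini-Hochberg adjustment over all genes and calls at an adjusted p under 0.05. The scripts were tested on simulated data. The number of arrays limits the precision.

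Replicate numbers did not pair the arrays: in 0 of 18 pairs of groups were all correlations of deviations over 0.1. Values of every array are given for members called with a difference of at least 1, up to 12 in each direction of a comparison. They are also given for some of the members that set apart the 2 day 5 arrays, which were chosen after their values were seen. Members, marker lists and the list of partner genes were chosen with earlier results of these data known, and alternatives with them; leaving out the 2 arrays that stood apart was added after seeing the data. Promoter sequences are from RefSeq (GRCm38.p6), used for sequence only.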

Additional observations from a re-analysis of the deposited data

Results flagged for a closer look

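For 6 guidance genes the response, day 5 minus day 0, differed between the iPS clones and ES cells by the test of the difference itself (limma, adjusted over all genes). For Epha4 the difference was -1.96 ± 0.11 (adjusted p = 7.55e-08), the response being -1.39 in ST8, -0.83 in ST5 and 0.85 in ES cells. Ntn1 differed by -1.31 ± 0.16 (adjusted p = 0.000435), with responses of -1.81 in ST8, -1.83 in ST5 and -0.51 in ES cells. Slit2 differed by -1.32 ± 0.29 (adjusted p = 0.0263), with 0.94 in ST8, 0.61 in ST5 and 2.1 in ES cells. Sema5a differed by -0.7 ± 0.15 (adjusted p = 0.0241), with -0.28 in ST8, -0.38 in ST5 and 0.37 in ES cells. Plxnc1 differed by -0.62 ± 0.13 (adjusted p = 0.0194), with -0.25 in ST8, -0.02 in ST5 and 0.49 in ES cells. Ephb4 differed by -0.38 ± 0.08 (adjusted p = 0.0231), with 0.2 in ST8, 0.3 in ST5 and 0.62 in ES cells.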

How the results depend on the processing

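Of 209 calls of a guidance gene in a comparison, 142 held under every alternative run, 67 were lost under at least 1 and 0 changed sign. Fitting only the groups of a comparison lost 38 calls, a further quantile normalization 13, a common array median 12, an intensity trend with robust spread 8 and averaging the probe sets of a gene 2. Leaving out genes below the median level, which leaves 156 of the calls to be tested, lost 0 of these. With all arrays, 9 members were called between the clones and ES cells at day 0, 8 at day 5, 6 in the response and 14 between ST8 and ST5 at day 5. Fitting only the groups of the comparison gave 18 at day 0, 0 at day 5 and 0 between ST8 and ST5 at day 5, and leaving out dim genes gave 4 between clones and ES cells at day 5. Without ES day 5 replicate 1 and ST8 day 5 replicate 2 the counts were 20 at day 0, 29 at day 5, 24 in the response and 36 between ST8 and ST5 at day 5; the wide spread that these arrays give their groups enters every test of the unamplified arrays. Leaving out each array in turn gave 3 to 7 members at day 0, 0 (without ES replicate 2 or 3) to 26 (without ES replicate 1) at day 5, 3 to 12 in the response and 2 (without ST8 replicate 1 or 3) to 33 (without ST8 replicate 2) between ST8 and ST5 at day 5. For day 5 against day 0 it gave 27 to 35 in ST8, 37 to 41 in ST5, 32 to 40 in ES cells and 19 to 24 in amplified ES cells, and in foregut 10 to 13 against ENDM1-negative cells and 20 to 27 against ES cells. With the replicate number as a block, 10 of the 209 calls were lost, and the counts were 33 in ST8, 41 in ST5, 37 in ES cells, 9 and 10 between clones and ES cells at day 0 and day 5, 6 in the response, 13 between ST8 and ST5 at day 5, 24 in amplified ES cells, 12 for foregut against ENDM1-negative cells and 21 against ES cells. Within a labelling, correlations of same-numbered arrays ran from -0.65 to 0.5. For these settings the share of all genes called is not given here, apart from the shares given with the comparisons above. The counts thus show how calls depend on the settings and are no result about guidance genes. The cause of the other lost calls was not tested.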
